A study of Mus musculus with 6 samples.

Results

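CC chemokines are small secreted proteins that attract leukocytes, and 9 genes that encode them were followed here: Ccl2, Ccl3, Ccl4, Ccl5, Ccl6, Ccl7, Ccl9, Ccl12 and Ccl24. They were chosen by gene symbol, with earlier results of these data known. Each symbol matched 1 row, and the genes made up 9 of the 55487 gene rows of the deposited table. All 9 passed the filter on low counts, Ccl5 only through its PBS libraries. The samples were bone-marrow-derived macrophages of wild-type (WT) female Balb/c mice aged 6 to 12 weeks. Marrow cells had been cultured for 8 days with 20% conditioned medium of L929 fibroblasts, and all of them were then given IL-4 and IL-13, each at 10 ng/mL, for 24 hours to polarize them to the alternatively activated (M2) state. The nanoparticle group (NP, 3 libraries, titled M2 PEMA) then received 200 µg/mL of nanoparticles for 24 hours, and the control group (PBS, 3 libraries) received PBS as the vehicle. The particles were of poly(lactide-co-glycolide) according to the series title, and the labels do not explain PEMA. The cells are a culture model, so no chemokine was measured in an animal given particles, and the data are of mRNA, not of secreted protein. The labels do not say whether replicates came from separate mice or cultures, so the spread behind each p-value is that between these libraries and may be purely technical.

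Chemokines of this family bind G protein-coupled receptors on leukocytes, and a gradient of the ligand steers the cells that carry the receptor. The family is named for a pair of adjacent cysteines near the start of the mature protein, and macrophages are among its main producers, where inflammatory signals through NF-kappa-B induce several members. Alternative activation brings out others, such as the eotaxin Ccl24 and, outside these 9 genes, Ccl17 and Ccl22. By role, the 9 fall into the monocyte chemoattractants Ccl2, Ccl7 and Ccl12, which bind CCR2, the inflammatory ligands Ccl3, Ccl4 and Ccl5, the CCR1 ligands Ccl6 and Ccl9, and the CCR3 ligand Ccl24.

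The coding sequence around the codons of the adjacent cysteines is shown because it is the feature that defines the family. Each line gives 15 bases on either side, for 8 of the genes, read from the GENCODE M21 transcripts, with the 2 cysteine codons in capitals.
Ccl2: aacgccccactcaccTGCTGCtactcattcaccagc
Ccl7: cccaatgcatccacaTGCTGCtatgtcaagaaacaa
Ccl12: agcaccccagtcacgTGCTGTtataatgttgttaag
Ccl4: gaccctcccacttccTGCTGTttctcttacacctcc
Ccl5: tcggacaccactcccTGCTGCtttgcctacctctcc
Ccl6: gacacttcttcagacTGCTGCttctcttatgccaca
Ccl9: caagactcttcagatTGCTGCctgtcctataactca
Ccl24: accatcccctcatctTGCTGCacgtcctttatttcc
The first of these cysteines was codon 33 or 34 in 7 of the genes, codon 50 in Ccl6 and codon 57 in Ccl9, so the last pair has a longer stretch before the motif. Ccl24 holds 2 adjacent pairs of cysteine codons, and the later one is shown. Over the whole coding sequence, identity was highest between Ccl3 and Ccl4 (67.0%), followed by Ccl6 and Ccl9 (63.7%) and Ccl7 and Ccl12 (62.6%). It was lowest between Ccl2 and Ccl5 (35.4%). Gaps were counted as differences, so unequal lengths lower these values, and the coding sequences of Ccl2 and Ccl5 have 447 and 276 bases. The longest run of bases shared by the transcripts of any pair was 25, between Ccl6 and Ccl9, and the libraries were read in pairs of 151 bp.

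On GRCm38, 8 of the 9 genes lie on chromosome 11, in a pair of clusters 1422 kb apart. Ccl2 (chr11:82035571-82037453), Ccl7 (chr11:82045712-82047525) and Ccl12 (chr11:82101845-82103400) are all on the plus strand and span 67.8 kb. Ccl5 (chr11:83525778-83530518), Ccl9 (chr11:83572919-83578636), Ccl6 (chr11:83587882-83593087) and Ccl3 (chr11:83647844-83649355) are on the minus strand, and Ccl4 (chr11:83662584-83664683), on the plus strand, closes the second cluster of 139 kb. Ccl24 lies apart, on the minus strand at chr5:135569937-135573049. The coding transcripts have 3 exons, and those of Ccl6 and Ccl9 have 4. The antisense gene Gm17268 overlaps Ccl2 but had 0 counts in all libraries, and E230016K23Rik, opposite Ccl6, had 7 to 25 counts per library and shares no exonic base with Ccl6.

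**Figure D1:**
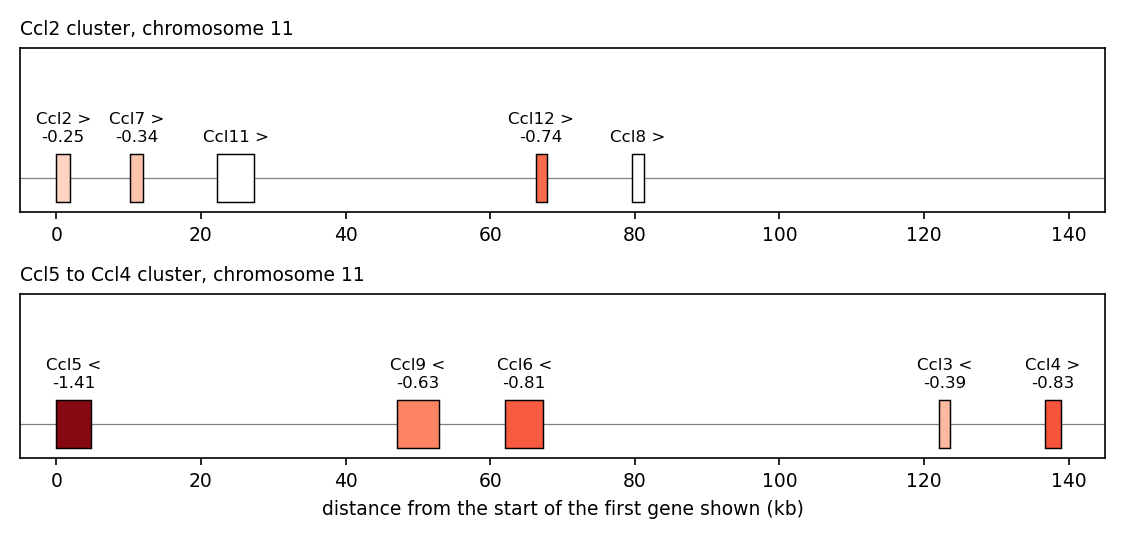
Position of the CC chemokine genes on chromosome 11, in kb from the start of the first gene shown, in one panel per cluster; > and < mark the strand, the number and the shade give the log2 fold change (NP minus PBS), and white boxes are CC chemokine genes that were not tested. The 3 genes of the first cluster and the 5 of the second lie 1422 kb apart, and all 8 were lower in NP.

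All 9 chemokine genes were lower in macrophages given nanoparticles, with log2 fold changes from -0.25 (Ccl2) to -1.41 (Ccl5). The test was limma voom with Benjamini-Hochberg adjustment over all 14478 tested genes, a threshold of 0.05 and 3 libraries per group. Of all tested genes, 41.2% were called in either direction and 21.4% were called lower by the same test. In all 9 genes every NP library also lay below every PBS library, which held for 26.8% of tested genes, while the opposite order held for none of the 9 and for 26.5% of tested genes. The median log2 fold change was -0.74 over the 9 genes and -0.00 over all tested genes. As the 9 were chosen with earlier results of these data known, these shares do not test CC chemokines as a family. The 2 other CC ligands that could be tested, Ccl22 and Ccl25, were higher in NP. Ccl5 was the 1 gene of the 9 at least 2-fold lower, against 2.67% of tested genes, and 0 were 2-fold higher (1.35%). As Ccl5 entered the test only through PBS, its lower level in NP adds no support to the count of 9. The summed level of the 9 genes, in CPM (counts scaled to a common library size, here with TMM factors), was 1026, 1007 and 1162 in PBS and 635, 841 and 651 in NP. The mean fell from 1065 ± 84.4 to 709 ± 115 CPM (SD, n = 3 each), a ratio of 0.666, and the groups did not overlap. Ccl9 and Ccl6 together made up 76.9% to 78.4% of this sum in PBS and 71.3% to 76.6% in NP. In these bulk samples, fewer producing cells and less RNA per cell cannot be told apart.

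**Figure D2:**
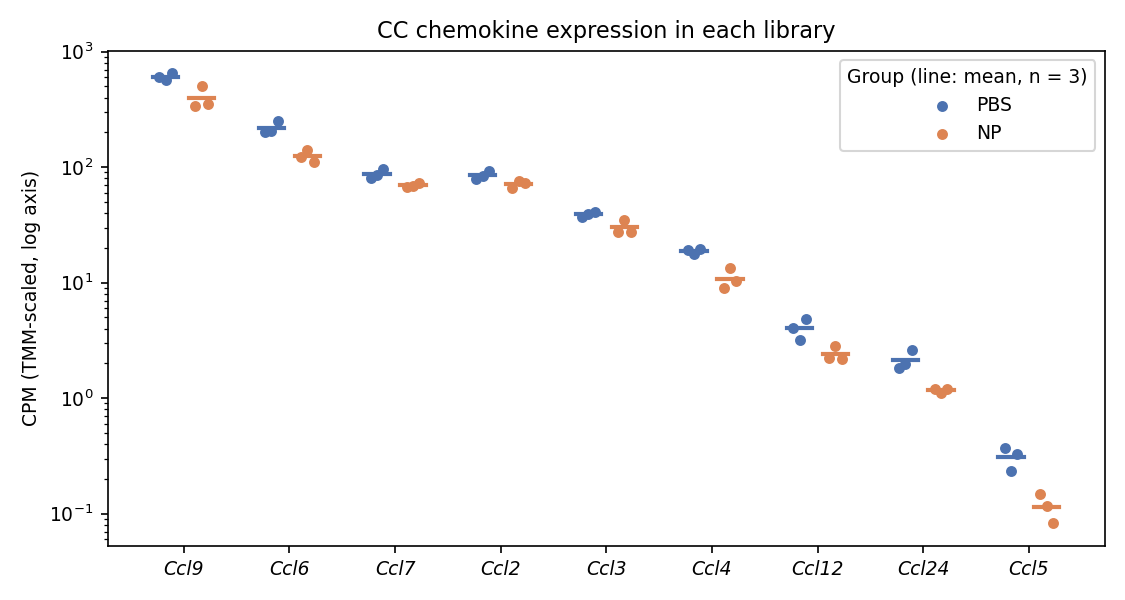
Level of each CC chemokine gene in each library (CPM, log axis), with PBS and NP libraries as points and the group mean as a line. In each of the 9 genes the 3 NP libraries lie below the 3 PBS libraries, and the genes span from 0.115 CPM (mean of Ccl5 in NP) to 607 CPM (mean of Ccl9 in PBS).

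Among the monocyte chemoattractants, Ccl2 and Ccl7 had the smallest fold changes of the 9 genes and Ccl12 a larger one. Ccl2, the main attractant of CCR2-bearing monocytes, stood at 78.3, 84.0 and 93.4 CPM in PBS 1 to 3 and at 65.8, 75.5 and 72.9 CPM in NP 1 to 3. The highest NP library was close to the lowest PBS library. The mean of Ccl2 went from 85.2 ± 7.60 to 71.4 ± 4.996 CPM, a log2 fold change of -0.25 ± 0.07 (SE; limma adjusted p = 0.0148). This call was the least stable of the 9: leaving out PBS 3 (-0.18, adjusted p = 0.0557), NP 1 (-0.18, 0.0920) or NP 3 (-0.26, 0.0725) ended it. Ccl7, which attracts monocytes through several receptors, had 80.7, 86.1 and 97.3 CPM in PBS and 67.4, 68.9 and 72.4 CPM in NP. Its NP libraries lay close together and all below PBS. The mean of Ccl7 went from 88.0 ± 8.47 to 69.5 ± 2.59 CPM (log2 fold change -0.34 ± 0.06, adjusted p = 0.00234), a call kept in each of the 14 alternatives run. Ccl12, another ligand of CCR2, was much less abundant, with 4.06, 3.17 and 4.87 CPM in PBS and 2.24, 2.85 and 2.20 CPM in NP. PBS 2 and NP 2 came close to each other. The log2 fold change of Ccl12 was -0.74 ± 0.17 (adjusted p = 0.00680), and it missed the threshold without NP 1 (-0.67, 0.0501) and without NP 3 (-0.67, 0.0581).

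Ccl2 and Ccl7 are neighbours in the genome, and the ratio between them differed little between the groups. Within libraries the ratio of Ccl2 to Ccl7 counts was 0.970, 0.976 and 0.959 in PBS and 0.978, 1.10 and 1.01 in NP, so the groups adjoined without overlap. The mean difference was 0.08 on the log2 scale, with single pairs of libraries between 0.00 and 0.19 (two-sided exact permutation p = 0.1, adjusted over 3 ratios p = 0.15). With 3 libraries against 3, 0.1 is the smallest p that this test can give. The profiles of the pair over the 6 libraries were also the closest of all pairs among the 9 genes, with a Euclidean distance of 0.159 between centred log2 CPM.

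The inflammatory ligands Ccl3, Ccl4 and Ccl5 were lower by different amounts. Ccl3 (MIP-1-alpha), an attractant of monocytes and T cells that binds CCR1, had 36.9, 39.2 and 41.1 CPM in PBS and 27.7, 34.8 and 27.6 CPM in NP. NP 2 stood above the other NP libraries and below PBS. The log2 fold change of Ccl3 was -0.39 ± 0.08 (adjusted p = 0.00564), and without NP 3 it was -0.32 and not called (adjusted p = 0.0578). Ccl4 (MIP-1-beta), which also attracts monocytes and T cells, had 19.3, 17.8 and 19.7 CPM in PBS and 8.94, 13.3 and 10.3 CPM in NP. The NP libraries were again ordered with NP 2 on top. The mean of Ccl4 went from 18.9 ± 1.00 to 10.9 ± 2.25 CPM (log2 fold change -0.83 ± 0.12, adjusted p = 5.01e-04), and this call held in all 14 alternatives.

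Although Ccl3 and Ccl4 lie side by side and have the highest percent identity of coding sequence, Ccl4 had the larger fold change. The ratio of Ccl3 to Ccl4 counts was 1.90, 2.20 and 2.09 in PBS and 3.10, 2.61 and 2.67 in NP, without overlap. Its mean difference was 0.44 on the log2 scale, with pairs of libraries between 0.25 and 0.70. The exact permutation p was 0.1, the smallest that 3 libraries against 3 allow, and 0.15 after adjustment over the 3 ratios, so it did not pass the threshold.

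Ccl5 (RANTES), a ligand of CCR1 and CCR3 that T cells and NK cells also make, was near the lower limit of detection. It had 21, 10 and 17 counts in PBS and 10, 7 and 5 counts in NP. As the NP libraries were deeper, the scaled levels were 0.369, 0.234 and 0.331 CPM in PBS and 0.147, 0.116 and 0.0827 CPM in NP. The 3 NP libraries lay below the filter cut of 0.171 CPM, so Ccl5 was tested only because of its level in PBS. Its direction was thus favoured by the filter. The log2 fold change of Ccl5, -1.41 ± 0.34 (adjusted p = 0.00904), was the most negative of the 9 and had the largest standard error. Its call was lost when any 1 NP library was left out, with adjusted p of 0.119 without NP 1, 0.135 without NP 2 and 0.176 without NP 3. The summed markers of T and NK cells were 0.0176 CPM in PBS 1, against 1.57 and 1.15 in PBS 2 and 3 and 0.0165 to 0.0331 in NP, with Cd8a, Ncr1 and Gzma at 0 in all libraries. Ccl5 was highest in PBS 1, the PBS library with the lowest sum of these markers. The part of these cells in the Ccl5 counts was not tested.

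Ccl9 and Ccl6, both CCR1 ligands that mouse myeloid cells make in large amounts, had the most counts of the set and carried most of its summed CPM, which takes no account of length. Ccl9 had 603, 568 and 651 CPM in PBS and 338, 502 and 354 CPM in NP. NP 2 lay nearer to the PBS libraries than to the other NP libraries. The mean of Ccl9 went from 607 ± 41.5 to 398 ± 90.4 CPM (log2 fold change -0.63 ± 0.13, adjusted p = 0.00352). Ccl6 had 202, 206 and 252 CPM in PBS and 124, 142 and 110 CPM in NP, with a wide gap between the groups. Its mean went from 219.99 ± 27.5 to 125 ± 16.3 CPM (-0.81 ± 0.10, adjusted p = 2.50e-04), and this call held in all 14 alternatives, while against PBS 1 alone, where only the NP libraries give the spread, Ccl9 was at -0.63 and not called (adjusted p = 0.0764). By mean CPM, Ccl9 ranked 242nd and Ccl6 1176th of the 14478 tested genes. The ratio of Ccl6 to Ccl9 counts was 0.335, 0.363 and 0.387 in PBS and 0.366, 0.284 and 0.310 in NP, and these ranges overlapped (difference -0.18 on the log2 scale, exact permutation p = 0.3, adjusted 0.3).

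Ccl24 (eotaxin-2), which attracts eosinophils through CCR3 and is a product of alternatively activated macrophages, was low in these cells. It had 1.83, 1.97 and 2.59 CPM in PBS and 1.21, 1.11 and 1.19 CPM in NP, from 67 to 133 counts per library. The NP libraries lay close together at about the same level, below all PBS libraries. Its mean went from 2.13 ± 0.407 to 1.17 ± 0.0514 CPM (log2 fold change -0.84 ± 0.17, adjusted p = 0.00360). Against PBS 1 alone the log2 fold change of Ccl24 was -0.65 and missed the threshold (adjusted p = 0.0599).

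**Figure D3:**
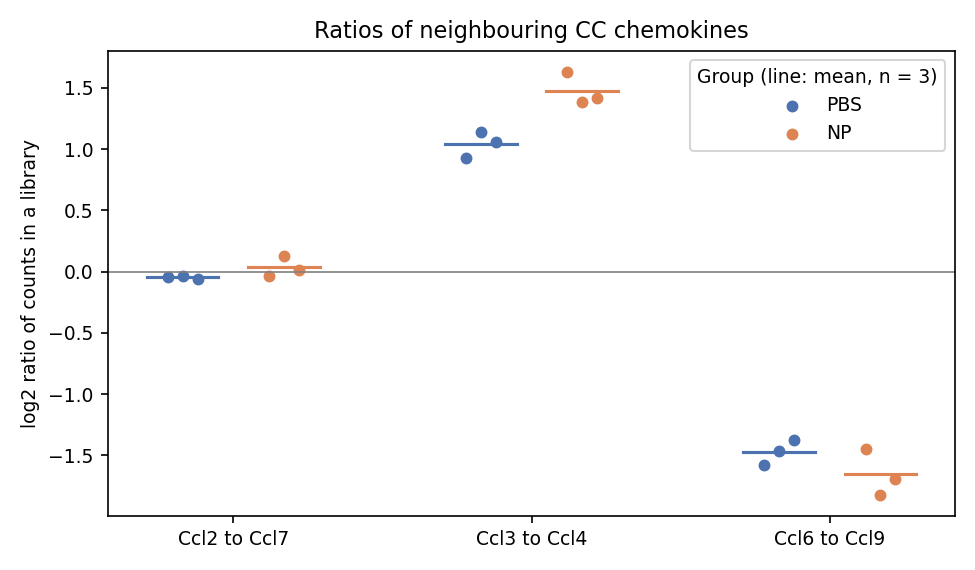
Within-library count ratios of 3 pairs of neighbouring chemokine genes on a log2 axis, with 1 point per library and a line at the mean of each group. The ratio of Ccl3 to Ccl4 does not overlap between PBS (1.90 to 2.20 before the logarithm) and NP (2.61 to 3.10), that of Ccl2 to Ccl7 lies near 0 on the axis in both groups, and the groups overlap for Ccl6 to Ccl9.

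Levels of different genes were compared as CPM per kb of coding transcript. In PBS the order was Ccl9 (202), Ccl6 (153), Ccl7 (110), Ccl2 (105), Ccl3 (51.0), Ccl4 (28.7), Ccl12 (7.51), Ccl24 (1.64) and Ccl5 (0.585). Only the neighbours Ccl7 and Ccl2 overlapped there, with libraries at 101 to 121 and 96.3 to 115 CPM per kb. In NP, Ccl9 again led with 132 CPM per kb, and Ccl2 (87.8), Ccl6 (87.0) and Ccl7 (86.8) overlapped, their libraries spanning 81.0 to 92.8, 76.3 to 98.8 and 84.1 to 90.4. Ccl3 (39.2), Ccl4 (16.5), Ccl12 (4.52), Ccl24 (0.903) and Ccl5 (0.217) followed without overlap. All annotated exons cover 1138 bases in Ccl2 and 1795 in Ccl6, against 813 and 1440 in the coding transcripts. With the length of all annotated exons, the NP order after Ccl9 was Ccl7 (86.8), Ccl6 (69.8) and Ccl2 (62.8).

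The same libraries were often the highest of their group. PBS 3 was the highest PBS library in 8 of the 9 genes, against 36.8% of all genes called lower. NP 2 was the highest NP library in 6 of the 9, against 69.6% of all genes called lower. The exceptions were Ccl5, with PBS 1 and NP 1 on top, Ccl7, with NP 3, and Ccl24, with NP 1. Without NP 3, 5 of the 9 genes were still called lower, against 12.5% of the genes tested in that fit. Without NP 1 the count was 6 (14.2%), and without NP 2 or PBS 3 it was 8 (17.1% and 17.6%). All 9 log2 fold changes were negative in each of these fits. Against PBS 1 alone 5 were called (11.8%), with the lone PBS library assumed to vary like the NP libraries.

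**Figure D4:**
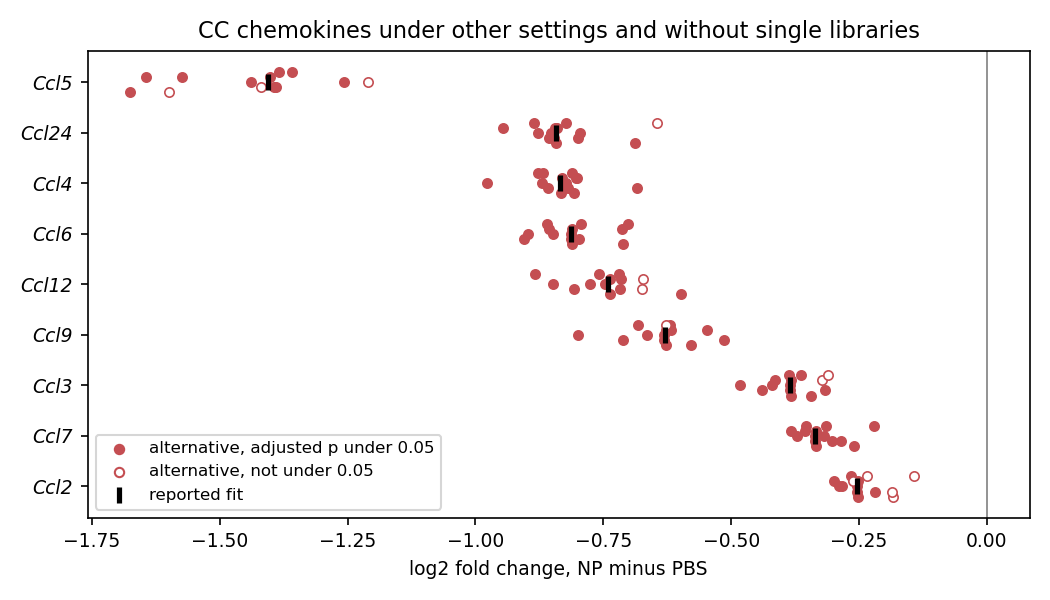
Log2 fold change (NP minus PBS) of each CC chemokine gene in the reported fit (black bar) and in up to 14 alternatives (points), filled where the limma adjusted p was under 0.05 and open where it was not. Every point lies below 0, and the open points belong to Ccl2, Ccl3, Ccl5, Ccl9, Ccl12 and Ccl24.

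Genes with the profile most like that of Ccl9 over the 6 libraries were Pik3r6 (distance 0.0770), Kif24 (0.118) and Poc1a (0.126). Closest to Ccl6 were H2az2 (0.183), Sdc4 (0.203) and Tfrc (0.222). The distance is Euclidean between log2 CPM values centred on the mean, over 9540 genes of at least 5 CPM with no predicted symbol. Their log2 fold changes ran from -0.62 to -0.87, and a size like that of Ccl9 and Ccl6 was fixed by the choice on the same libraries. Among the 9 chemokines, Ccl4 and Ccl9 (0.264) and Ccl2 and Ccl3 (0.268) were the next closest pairs after Ccl2 and Ccl7, and Ccl2 and Ccl5 the least alike (1.62).

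The promoters of Ccl6 and Ccl9 are shown because these neighbours carry most of the chemokine counts and share a short block, at different distances before the start site. RefSeq (GRCm38.p6) promoter sequences were found for 4 of the 9 genes: Ccl3, Ccl6, Ccl9 and Ccl12. Each line gives the 100 bases before the start of the gene on the minus strand, from chr11:83593088-83593187 for Ccl6 and chr11:83578637-83578736 for Ccl9. Capitals mark a block of 17 bases in which 16 are identical.
Ccl6: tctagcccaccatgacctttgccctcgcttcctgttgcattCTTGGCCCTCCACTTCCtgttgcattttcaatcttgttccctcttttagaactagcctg
Ccl9: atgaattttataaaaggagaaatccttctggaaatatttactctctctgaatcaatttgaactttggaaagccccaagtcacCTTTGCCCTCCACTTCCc
The block lies 59 to 43 bases before the start of Ccl6 and 18 to 2 bases before that of Ccl9, and its difference is G4T, counted from the first base of the block, from Ccl6 to Ccl9. Other pairs of the 4 promoters shared 9 to 14 identical bases in blocks of 9 to 17. In windows of 300 bases, searched on both strands, the NF-kappa-B motif was found in the promoter of Ccl9 and in 8.46% of 32851 promoters, and the AP-1 motif TGANTCA also in that of Ccl9 (7.81%). GAGGAA, the only form of the ETS motif searched, was found in Ccl3 and Ccl12 (28.3%) and the C/EBP motif TTGNNNAA in Ccl3 (36.7%). Other forms of the ETS motif were not searched, so its absence from Ccl6 and Ccl9 is not shown. The STAT6 palindrome, TTC and GAA with any 4 bases between them, was in 0 of the 4 windows (6.95% of all).

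Chemokine mRNAs are known for AU-rich elements that shorten their life, with ATTTA as the core. In the annotated transcripts, 7 of the 9 genes (77.8%) had at least 1 ATTTA in the 3′ untranslated region, against 64.5% of 8646 tested genes with a region of 167 to 2465 bases. Ccl12, Ccl3 and Ccl9 had 5 each, Ccl6 had 4, Ccl4 and Ccl7 had 2, Ccl2 had 1, and Ccl5 and Ccl24 had none. Ccl12 carried its 5 in 167 bases and Ccl9 its 5 in 2465. Of 9 genes listed for the control of mRNA decay, 3 were lower, against 21.4% of all tested genes, and 6 were not called. Zfp36l1, which promotes decay, went from 91.2 to 39.6 CPM (log2 fold change -1.22), and Khsrp was at -0.12, a call lost without PBS 1, PBS 3, NP 1 or NP 3 (adjusted p of 0.0795 to 0.123). Zfp36l2 (-0.00) was not called, and its sign changed with the scaling.

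Other CC ligands that could be tested were higher in NP. Of 11 further symbols, represented by 14 rows, 2 were tested, and both were called higher, against 19.8% of all tested genes. Ccl22, a CCR4 ligand typical of alternative activation, had 1.16, 0.938 and 1.50 CPM in PBS and 3.65, 4.06 and 4.00 CPM in NP (adjusted p = 6.64e-05). Ccl25, a CCR9 ligand, rose from a mean of 3.25 to 4.52 CPM (log2 fold change 0.46, adjusted p = 0.0195), a call lost without PBS 2 (0.0526), PBS 3 (0.0863), NP 1 (0.0612) or NP 3 (0.0708). Ccl17, the other well known product of alternative activation, had 0 counts over the PBS libraries and 7 over the NP libraries, and 3 counts in a library equal 0.0432 to 0.0715 CPM. Ccl8 had 16 and 22 counts and Ccl28 10 and 20, over PBS and NP. Ccl1, Ccl11, Ccl19, Ccl20 and Ccl26 had 0 counts in all libraries, so eotaxin-1 (Ccl11) was not detectable at this depth beside the eotaxin Ccl24.

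The receptors of these ligands moved in both directions: of 16 receptor genes, 9 were tested, 3 were lower and 3 higher. Over all tested genes, 21.4% were lower and 19.8% higher. Ccr2, the receptor of Ccl2, Ccl7 and Ccl12, had 8.15, 8.93 and 8.69 CPM in PBS and 4.10, 5.93 and 4.35 CPM in NP. Its log2 fold change was -0.86 (adjusted p = 5.44e-04), and the 3 NP libraries lay below PBS, as for its ligands. Ccr3, which binds Ccl24, fell from 1.50 to 0.673 CPM (-1.19). Ccr1, the receptor shared by Ccl6, Ccl9 and Ccl3, rose from 60.7 to 83.9 CPM (log2 fold change 0.47, adjusted p = 1.52e-05) while those 3 ligands fell. The atypical receptor Ccrl2 rose from 29.8 to 56.1 CPM (0.91). Ccr7, which guides dendritic cells to lymph nodes, had 1 count over PBS and 85 over NP, a ratio of 67.9 after scaling with an exact 95% counting interval from 11.9 to 2715.

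**Figure D5:**
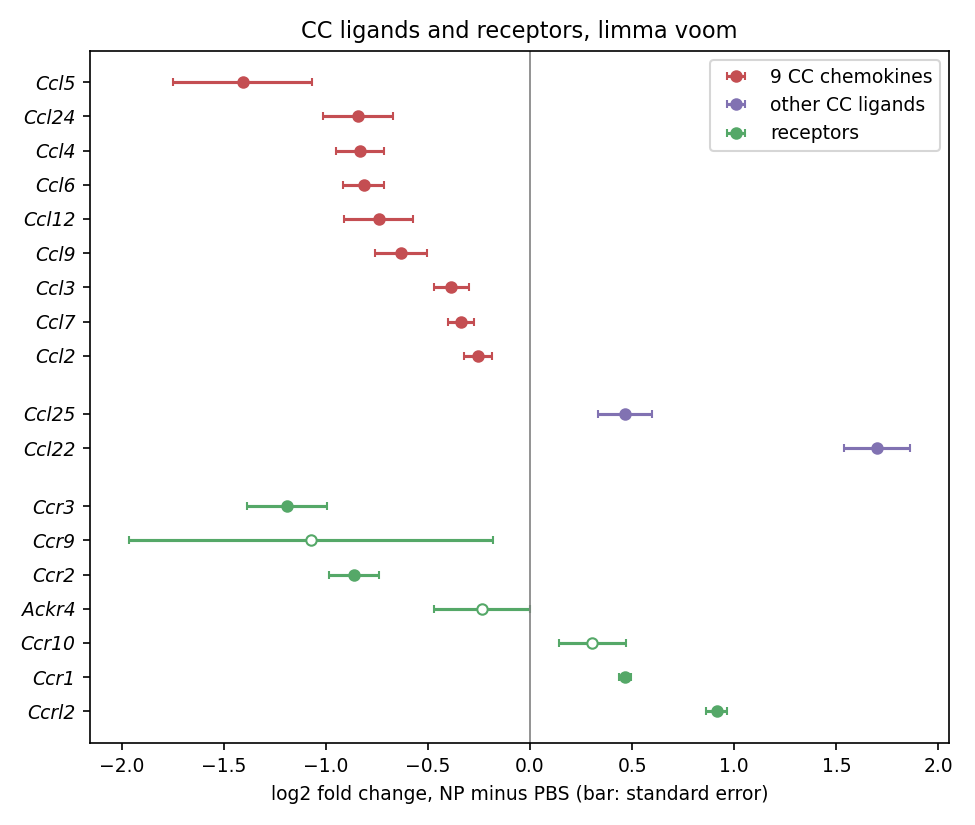
Log2 fold change (NP minus PBS, bars are standard errors) of the 9 CC chemokine genes, the other tested CC ligands and 7 of the 9 tested receptors, with open symbols where the limma adjusted p was 0.05 or more. All 9 chemokines lie below 0, Ccl22 and Ccl25 above 0, and the receptors on both sides.

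Other chemokine families were mixed as well. Of 16 CXC and other chemokine genes, 7 were tested, with 4 lower and 1 higher, against 21.4% and 19.8% of all tested genes. The neutrophil attractants Cxcl1 (log2 fold change -1.25), Cxcl2 (-1.38) and Cxcl3 (-2.48) were all more than 2-fold lower (against PBS 1 alone Cxcl1 missed the threshold, adjusted p = 0.0968), and Cxcl16 fell by 0.33 on the log2 scale. The most abundant of the list, Cxcl14, rose from 119.7 to 227 CPM (0.92). Pf4 was at -0.18 and did not pass (adjusted p = 0.0512), although it did in 6 of the 14 alternatives, without PBS 1 (0.0480) and without NP 1 (0.0301) among them.

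Upstream genes gave no single direction, and each count below stands against 21.4% lower and 19.8% higher over all tested genes. Of 17 genes of NF-kappa-B and inflammatory induction, 16 were tested, 7 were lower and 4 higher. Nfkb1 (-0.33) and Rel (-0.42), which encode subunits of the factor, were lower, Rela was higher (0.16) and Nfkb2 was not called (0.03). The call of Rela was lost without PBS 2 (adjusted p = 0.0637). Il1b, an inflammatory cytokine gene, fell from 19.2 to 9.24 CPM (-1.05). Of 15 genes of IL-4 and IL-13 signalling, 8 were lower and 3 higher. Stat6, the transcription factor of that pathway, was at 0.02 and not called (adjusted p = 0.581), Jak1 (0.15) and Il2rg (0.17) were higher, and Egr2 (-0.23) and the inhibitor gene Cish (-1.10) were lower. The signs of Stat6 and Nfkb2 turned with library totals as the scaling, and Il2rg lost its call there (adjusted p = 0.0891) and without PBS 2, PBS 3, NP 2 or NP 3 (0.0566 to 0.150). Of 9 proteases that can cut chemokines, 8 were tested, 3 were lower and 2 higher. The macrophage elastase Mmp12 was by far the most abundant, at 8500 CPM in PBS and 10480 CPM in NP (0.30), and Adam10 (-0.26) and Adam17 (-0.22) were lower.

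Within 100 kb of the chemokines, 9 other genes were tested, a set chosen after their values were seen. Beside the cluster from Ccl5 to Ccl4, 2 of 6 were lower (Taf15, -0.13, and Wfdc17, -0.44) and 4 were not called, and 21.4% of all tested genes were lower. Beside Ccl24, on chromosome 5, 2 of 3 were higher (Por, 0.46, and Rhbdd2, 0.17), against 19.8% of all tested genes, and 1 was not called. None of the 9 had Ccl2, Ccl7 or Ccl12 as its nearest chemokine. Taf15 lies 19.0 kb from Ccl5 and Por 97.0 kb from Ccl24.

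Total counts ranged from 41974957 to 69450411 per library. All 7 macrophage markers were detected, from Fcgr1 at 5.23 CPM to Lyz2 at 8330 CPM in PBS. Lyz2 made up most of their sum of 11645 to 11945 CPM in PBS and 9424 to 10434 CPM in NP. Of the 7, 5 were lower and 1 higher, against 21.4% and 19.8% of all tested genes. Cd68 was the higher marker (mean of 1632 CPM in PBS and 1794 CPM in NP), and Fcgr1 was not called. Of the 3 monocyte markers Ly6c2 was at 0 throughout, and the sum, nearly all Ccr2, was 8.22 to 9.28 CPM in PBS and 4.12 to 5.95 CPM in NP. Neutrophil markers summed to 0.604 to 0.825 CPM in PBS and 0.911 to 1.15 CPM in NP, with Ly6g and Camp at 0, and all 5 mast cell and basophil markers were at 0. Eosinophil markers, with Epx at 0, summed to 1.45 to 2.09 and 1.87 to 2.12 CPM, fibroblast markers to 2.69 to 3.34 and 2.25 to 2.78 CPM, and endothelial markers to 16.9 to 17.6 and 18.3 to 19.3 CPM. Nearly all of the endothelial sum was Kdr, and Pecam1 of that list was lower in NP (0.383 and 0.138 CPM, log2 fold change -1.39, adjusted p = 0.0129). B cell markers summed to 0.0702 to 0.797 CPM in PBS and 0.0441 to 0.0829 CPM in NP. The part of the lower sums of macrophage and monocyte markers in the lower chemokine levels was not tested.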

How the data were processed

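Polyadenylated RNA of 6 libraries (3 PBS, 3 NP) was sequenced in pairs of 151 bp, per the labels' protocols. The authors deposited 1 table of gene-level counts, not scaled for depth. Tools named in the submitters' processing notes are STAR 2.7.8a, RSEM 1.3.3 and cutadapt 2.3, with FastQC 0.11.8 and MultiQC 1.7, on the build GRCm38; the annotation release and whether counting used strand were not given in the sources used here. All deposited values were whole numbers. Of 55491 rows, 4 reporter rows were left out.

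Genes needed at least 0.171 CPM (10 counts at the median depth) in 3 libraries and 15 counts in total, which left 14478. The fit was limma voom (limma 3.58.1, R 4.3.3) with the group as its single term, 4 residual degrees of freedom, 0.5 added to each count and TMM factors of 0.979 to 1.02. Adjusted p-values follow Benjamini-Hochberg over all tested genes, with a threshold of 0.05. The layout of the table kept its unit from being checked automatically, so count-model tools planned as alternatives were not run. Log2 fold changes are NP minus PBS, and CPM use the TMM-scaled sizes of tested genes. Alternatives were limma-trend, other scaling factors and filters, sample quality weights, a replicate block, leaving out each library in turn and keeping PBS 1 alone in its group. The script was tested on simulated data. Positions and transcripts come from GENCODE M21 on GRCm38, and promoters from RefSeq on GRCm38.p6. Intervals cover counting error only. A few items are not reported here.

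The members and all lists were chosen with earlier results of these data known. Named genes were all 9 members and, in each list, those called and changed at least 2-fold plus at most 4 with the highest mean CPM; a few others are named beside counts of 5 or fewer or for their known role. For likeness, the 3 nearest genes were named for each of the 2 most abundant members.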

Additional observations from a re-analysis of the deposited data

How the results depend on the processing

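Over 14 alternatives the 9 genes gave 125 log2 fold changes, of which 111 kept their call, 14 no longer passed and 0 changed direction. Ccl4, Ccl6 and Ccl7 kept their calls throughout, and Ccl5 was not tested at a filter of 1 CPM in 3 libraries. The count of genes called lower was 8 with no filter, 5 against PBS 1 alone, and 5 to 9 when 1 library was left out. With no filter Ccl2 was at -0.23 (adjusted p = 0.05002). With PBS 1 alone Ccl2 was at -0.14, Ccl3 at -0.31, Ccl9 at -0.63 (adjusted p = 0.0764) and Ccl24 at -0.65. Without 1 library each, log2 fold changes ran from -0.30 to -0.18 for Ccl2, from -0.48 to -0.32 for Ccl3, from -1.60 to -1.21 for Ccl5 and from -0.88 to -0.60 for Ccl12. These fits had fewer samples and other tested genes. The 3 ratios stayed on the same side in all 21 alternatives.

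The replicate block gave 9 lower genes, and 2669 lower and 2353 higher genes over the table. Deviations from the group mean in same-numbered libraries had correlations of -0.01, -0.12 and -0.14. With 3 libraries per group, these cannot show whether the numbers pair the samples. The block changed no call of the 9 genes; among the other named genes Il2rg (adjusted p = 0.0614) and Khsrp (0.0606) lost theirs. Ccl2 was -0.25 in the fit with the replicate block. Scaling by library totals gave 61.6% of calls as lower, against 51.8%. Among 33 genes of the other lists, 8 of 460 values changed sign, all of genes near 0 and not called: Nfkb2 (-0.00022) and Stat6 (-0.011) with library totals, and Zfp36l2 with median-of-ratios factors (0.00080), with no filter (0.014) and in 4 fits without 1 library (0.0077 to 0.030; all 6 such fits gave -0.042 to 0.030). A total of 24 values no longer passed and 11 newly passed. Of all genes, 1975 were called lower without NP 3, 1775 with PBS 1 alone and 2243 of 27636 with no filter, against 3092. Depth limits Ccl5 most, with 48 and 22 counts over PBS and NP.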

Other observations

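Lymphocyte genes stood apart in PBS 2 and PBS 3 and not in the other libraries. Ccr9, a receptor of thymocytes and gut-homing T cells and the receptor of Ccl25, had 0.123 CPM in PBS 1 against 1.43 and 1.36 CPM in PBS 2 and 3. The summed T and NK cell markers followed the same order among the PBS libraries (0.0176, 1.57 and 1.15 CPM), and so did the B cell markers (0.0702, 0.797 and 0.584 CPM). Among the PBS libraries, Ccl4, Ccl5, Ccl9 and Ccl12 were lowest in PBS 2 and the other 5 chemokine genes in PBS 1, while Ccl5 was highest in PBS 1 and the other 8 in PBS 3.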
